A study of Mus musculus with 4 samples.

Results

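The CD3 chains, the coreceptors CD8 and CD4, the surface molecules CD2 and CD5 and the kinase ZAP-70 form the core of the apparatus by which T cells read antigen. Here the transcripts of 10 such genes (Cd3d, Cd3e, Cd3g, Cd8a, Cd8b1, Cd4, Cd2, Cd5, Zap70 and Lck) were followed in whole mouse heart. The genes were chosen by their signals in the comparison described here, heterozygous against wild-type hearts, so their differences are given as a description without a test. Of the 10 genes, 9 were represented on the arrays by 12 probe sets, out of 8251 genes with a named probe set, and Lck was not analysed here. Total RNA of hearts of adult male mice, aged 8 to 16 weeks, on a mixed 129 and Black Swiss background, was hybridised to 4 one-colour oligonucleotide arrays. There were 2 samples of heterozygous mice and 2 of wild-type mice, and every sample was a pool of 5 hearts. The labels do not say that the pools of one genotype came from separate animals, so the spread between pools, and every p-value below, may be partly technical, and a pool varies less than a single heart.

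On the T cell surface the antigen receptor heterodimer has almost no cytoplasmic part and signals through the CD3 delta, epsilon and gamma chains and the zeta chain, which carry tyrosine motifs inside the cell. CD8, usually a dimer of an alpha and a beta chain on T cells of the thymus and of lymphoid organs, and CD4 bind the MHC molecule that presents the antigen and bring the kinase LCK to the complex, and ZAP-70 docks on the phosphorylated chains and passes the signal on. In the thymus most developing cells carry CD4 and CD8 together, while T cells that leave it keep one of them. The healthy heart muscle holds few T cells.

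The RefSeq gene table places Cd3g, Cd3d and Cd3e side by side on chromosome 9, with no other protein-coding gene between them, and Cd8b1 next to Cd8a on chromosome 6. Cd4 also lies on chromosome 6, beside Lag3, and Cd5 lies on chromosome 19 beside Cd6. RefSeq promoter windows of build GRCm38.p6, which run from 250 bases before to 50 bases after a gene's start, were found for 6 of the 9 genes (8 windows, 3 of them of Zap70). The windows of the CD3 trio and of Cd8a are shown because these neighbours differed in the same direction in the hearts while the sizes of their differences were unequal. Capitals mark GGAAG, which holds the core GGAA that ETS factors recognise, and CTTTGA, a core of TCF and LEF sites, on either strand.
Cd3d (chr9:44981536-44981835, + strand): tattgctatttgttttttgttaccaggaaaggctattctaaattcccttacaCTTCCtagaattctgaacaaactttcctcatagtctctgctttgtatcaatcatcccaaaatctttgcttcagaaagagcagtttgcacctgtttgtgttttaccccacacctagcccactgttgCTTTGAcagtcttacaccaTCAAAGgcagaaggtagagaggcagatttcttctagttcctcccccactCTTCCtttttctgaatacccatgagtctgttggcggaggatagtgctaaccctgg
Cd3g (chr9:44980382-44980681, - strand): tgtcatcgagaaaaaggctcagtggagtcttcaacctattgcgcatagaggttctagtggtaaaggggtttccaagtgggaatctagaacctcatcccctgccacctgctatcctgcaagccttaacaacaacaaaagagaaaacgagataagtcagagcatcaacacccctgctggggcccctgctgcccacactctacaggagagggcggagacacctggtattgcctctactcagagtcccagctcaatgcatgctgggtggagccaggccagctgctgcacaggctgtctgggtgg
Cd3e (chr9:45009562-45009861, - strand): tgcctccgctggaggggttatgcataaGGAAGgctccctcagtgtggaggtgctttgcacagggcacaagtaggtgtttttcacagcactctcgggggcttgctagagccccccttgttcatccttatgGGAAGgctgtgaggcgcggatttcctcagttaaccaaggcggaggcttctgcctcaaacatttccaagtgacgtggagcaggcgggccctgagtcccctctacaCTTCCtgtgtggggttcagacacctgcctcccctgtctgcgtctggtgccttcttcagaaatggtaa
Cd8a (chr6:71373177-71373476, + strand): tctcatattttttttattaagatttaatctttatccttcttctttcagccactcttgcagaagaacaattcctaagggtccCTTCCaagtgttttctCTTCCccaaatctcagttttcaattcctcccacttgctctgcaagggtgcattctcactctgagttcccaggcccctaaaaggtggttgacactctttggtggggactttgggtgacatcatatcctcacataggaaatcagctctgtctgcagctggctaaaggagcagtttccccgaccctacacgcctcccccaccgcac

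The window of Cd3d held 2 matches to GGAAG and 2 to CTTTGA, that of Cd3e held 3 and 0, and that of Cd8a held 2 and 0. Neither GGAAG nor CTTTGA was in the window of Cd3g, although the shorter GGAA was. GGAAG occurred in 6 of the 8 windows of these genes and in 71.4% of all 32851 promoter windows, and CTTTGA occurred in 2 of 8 (Cd3d and the first start of Zap70) and in 16% of all. The RUNX core TGTGGT occurred in 1 of 8 windows, the second start of Zap70, and in 16.8% of all, and the E box CANNTG in 8 of 8 and in 72.3% of all. All motifs were searched on both strands, matches of different motifs may share bases, and a match describes the letters only.

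All 9 genes had lower signals in both heterozygous pools than in either wild-type pool, as 34.5% of the 5692 tested genes did. In the fit across all probe sets (limma, Benjamini-Hochberg adjustment, threshold 0.05) all 9 were called lower, where 19.5% of all tested genes were, and nothing is read from this count because the genes were chosen on this comparison. The median log2 difference of the 9 genes was -3.25, or 9.52-fold lower, against a median of 0.02 over all tested genes. In RNA of whole tissue, fewer cells of a type, less RNA per cell and a different share of other tissue in the sample cannot be told apart. Signals are intensities in the authors' scale, on which each array has nearly the same total, and levels of different probe sets are not comparable with one another.

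**Figure D1:**
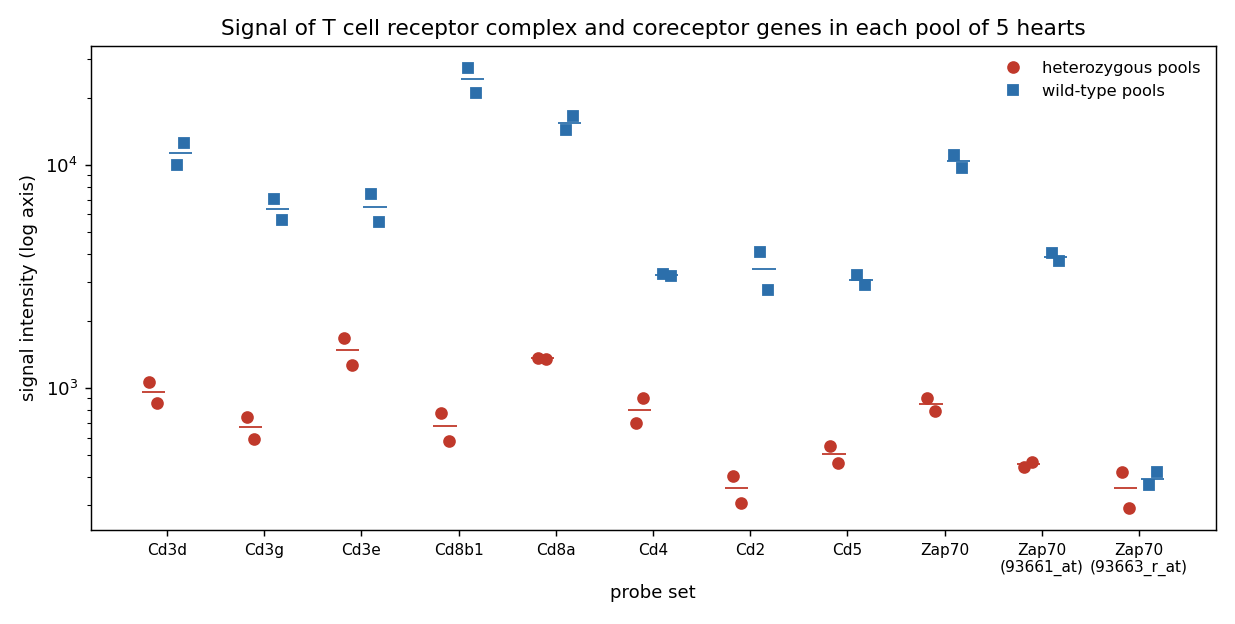
Signal intensity (log axis) of every tested probe set of the 9 genes, as 1 point per pool (circles, 2 heterozygous pools; squares, 2 wild-type pools) with a line at the mean of each genotype. Both heterozygous pools lie below both wild-type pools in every probe set except the dimmest of Zap70, where the pools overlap.

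Among the CD3 chains, Cd3d (delta) had signals of 1066.3 and 861.7 in heterozygous pools 1 and 2, against 9992.9 and 12568.6 in wild-type pools 1 and 2. Cd3g (gamma) had 743.4 and 592.9 in the heterozygous pools, against 7046.7 and 5672.4 in the wild-type pools. Cd3e (epsilon, the chain that pairs with both others) had 1684.3 and 1274.8 in the heterozygous pools, against 7378.8 and 5558.4 in the wild-type pools. For each chain the heterozygous pools lay far below the wild-type pools, and for each chain the first heterozygous pool was the higher of its pair. Cd3d was 11.7-fold lower in heterozygous hearts (log2 difference -3.55, SE 0.18), Cd3g was 9.52-fold lower (-3.25, SE 0.19) and Cd3e was 4.37-fold lower (-2.13, SE 0.20; n = 2 pools each). A heterozygous pool thus kept, as a mean, 8.55% of the wild-type signal of Cd3d, 10.5% of that of Cd3g and 22.9% of that of Cd3e. The other probe set of Cd3d was too dim to test, with signals of 3.3 and 51.4 in the heterozygous pools and 2.5 and 22.3 in the wild-type pools, 3 of the 4 under the floor of 36.4 that was set on low signals.

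Of the coreceptors, Cd8b1 (the beta chain of CD8) had signals of 770.2 and 581.5 in the heterozygous pools, against 27217.4 and 21097.4 in the wild-type pools. Its mean was 675.9 ± 133 in heterozygous and 24157 ± 4327 in wild-type hearts (SD, n = 2), a 35.8-fold lower level (log2 difference -5.16, SE 0.19). This was the largest difference among the 9 genes, and over the 4 pairings of a heterozygous with a wild-type pool it ran from 27.4-fold to 46.8-fold. No other probe set named for Cd8b1 was there to set beside it. Cd8a (the alpha chain) had 1364.3 and 1351.4 in the heterozygous pools, against 14407.9 and 16502.5 in the wild-type pools, and was 11.4-fold lower (log2 difference -3.51, SE 0.15). Cd4, the coreceptor for MHC class II, had 698 and 904.7 in the heterozygous pools, against 3252.2 and 3194.8 in the wild-type pools. Cd4 was 4.06-fold lower (log2 difference -2.02, SE 0.19), the smallest difference of the 9. The heterozygous mean was 2.80% of the wild-type mean for Cd8b1, 8.79% for Cd8a and 24.9% for Cd4.

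Cd2, an adhesion receptor of T cells and natural killer cells that binds CD48 in the mouse, had signals of 404.1 and 307.1 in the heterozygous pools, against 4073.4 and 2748.8 in the wild-type pools. Its wild-type pools were the farthest apart of the 9 genes, 0.57 on the log2 scale, and it was 9.5-fold lower in heterozygous hearts (log2 difference -3.25, SE 0.25). Cd5, which dampens receptor signalling in thymocytes and T cells and is also carried by some B cells, had 551.4 and 463.2 in the heterozygous pools, against 3199.8 and 2889.9 in the wild-type pools. Cd5 was 6.02-fold lower (log2 difference -2.59, SE 0.19), so that the pools of the genotypes stood well apart for both surface molecules.

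Zap70, the kinase recruited to the phosphorylated CD3 and zeta chains, was measured by 3 probe sets of 1 gene. The brightest had signals of 901.8 and 793.2 in the heterozygous pools, against 11069 and 9728.9 in the wild-type pools, and was 12.3-fold lower (log2 difference -3.62, SE 0.16). The next had 444.6 and 467.9 in the heterozygous pools, against 4046.6 and 3713 in the wild-type pools, and was 8.5-fold lower (log2 difference -3.09, SE 0.18). The dimmest had 420.9 and 290.1 in the heterozygous pools, against 367.2 and 418.7 in the wild-type pools. Its pools overlapped and its log2 difference was -0.17 (SE 0.36), so the probe sets of Zap70 disagree, and the dimmest carries the Affymetrix suffix _r_at, which marks relaxed rules of probe selection. The brightest probe set stands for the gene in the ratios and counts.

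In the order of their differences, the genes ran Cd8b1, Zap70, Cd3d, Cd8a, Cd3g, Cd2, Cd5, Cd3e and Cd4. Only Cd8b1 stood clear of its neighbour: its smallest pool-to-pool difference was 27.4-fold, above the 13.9-fold that was the largest for Zap70. Every other pair of neighbours overlapped in the range of their pool-to-pool differences. At the lower end Cd3e ran from 3.30-fold to 5.79-fold and Cd4 from 3.53-fold to 4.66-fold, while Cd5 ran from 5.24-fold to 6.91-fold and so overlapped with Cd3e and not with Cd4. Between pools of the same genotype the 9 genes differed by a median of 0.33 on the log2 scale in heterozygous and 0.31 in wild-type hearts, against 0.21 in both genotypes over all tested probe sets. The first heterozygous pool was the higher of the pair in 8 of the 9 genes (Cd4 was the exception), and the first wild-type pool was the higher in 7 of 9 (all but Cd3d and Cd8a).

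**Figure D2:**
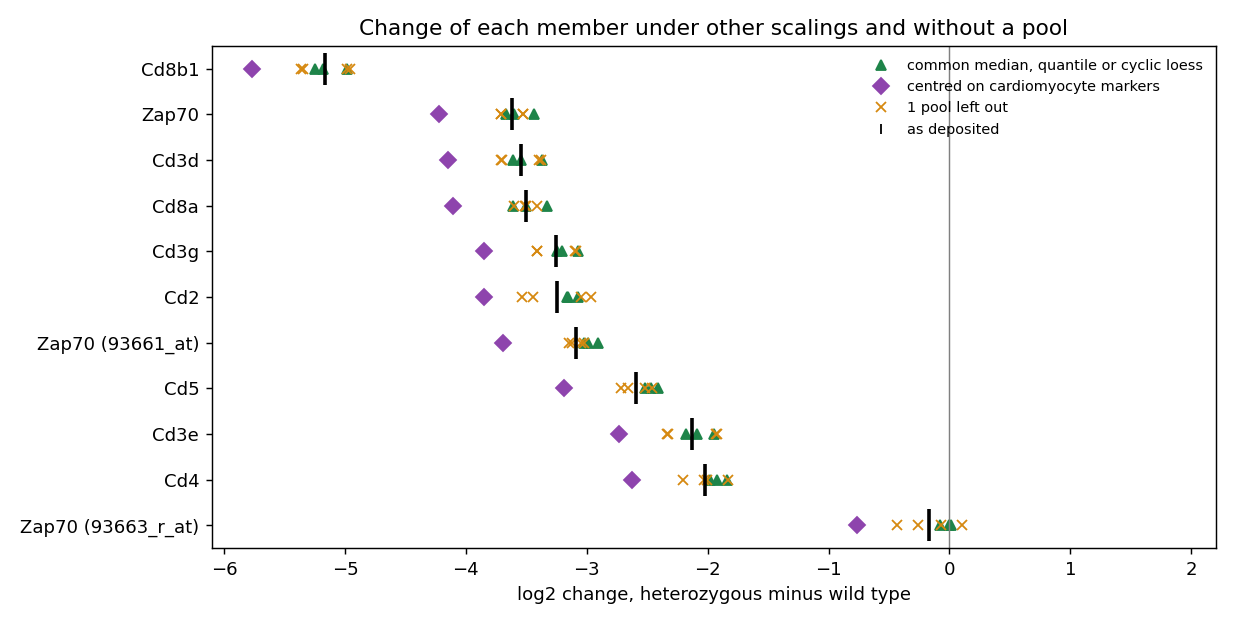
Log2 difference of each tested probe set, heterozygous minus wild type, on the deposited scale (black bar), under other scalings between arrays (triangles), with arrays centred on the cardiomyocyte markers (diamonds) and with 1 pool left out (crosses). The 9 genes stay below -1.8 in every setting shown, and the dimmest Zap70 probe set reaches 0.10 without heterozygous pool 2.

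Ratios between chains were followed as the log2 ratio of the signals of 2 genes in each pool, set to 0 at the mean of the wild-type pools. Such a ratio cancels the scaling of an array. It shows unequal difference only, and says nothing about how many molecules of each chain there were. Probe sets of 1 gene can also differ unequally. The 2 of Cd6 had log2 changes of -0.85 and -2.98, and the 2 brighter ones of Zap70 had -3.62 and -3.09. Whether the probe sets, rather than the transcripts, set these ratios apart was not tested. Cd8b1 over Cd8a stood at -1.46 and -1.85 in the heterozygous pools, against 0.28 and -0.28 in the wild-type pools. The ratio of these 2 signals was therefore 3.15-fold lower in heterozygous hearts (log2 difference -1.66, SD within genotypes 0.34), and the pools did not overlap. Within CD3, Cd3g over Cd3e stood at -1.16 and -1.09 in the heterozygous pools, against -0.05 and 0.05 in the wild-type pools, with the tightest pools of all ratios (log2 difference -1.12, SD 0.06). Cd3d over Cd3e stood at -1.47 and -1.37 in the heterozygous pools, against -0.37 and 0.37 in the wild-type pools (log2 difference -1.42, SD 0.37). Both ratios over epsilon were lower in heterozygous hearts without overlap of the pools. Cd3d over Cd3g stood at -0.31 and -0.29 in the heterozygous pools, between the wild-type pools at -0.32 and 0.32, so delta and gamma were not separated beyond the spread between pools.

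The signal of Cd8a differed more than that of Cd4. Cd8a over Cd4 stood at -1.29 and -1.68 in the heterozygous pools, against -0.11 and 0.11 in the wild-type pools (log2 difference -1.49, or 2.80-fold lower, SD 0.22). Cd8a over Cd3e stood at -1.57 and -1.18 in the heterozygous pools, against -0.30 and 0.30 in the wild-type pools (log2 difference -1.38, SD 0.36). Cd4 over Cd3e stood at -0.28 and 0.50 in the heterozygous pools, against -0.19 and 0.19 in the wild-type pools, and the pools overlapped (log2 difference 0.11, SD 0.43). Cd2 over Cd5 stood at -0.59 and -0.73 in the heterozygous pools, against 0.21 and -0.21 in the wild-type pools (log2 difference -0.66, SD 0.22). Of the 8 ratios, 6 had pools that did not overlap between genotypes, and Cd3d over Cd3g and Cd4 over Cd3e did overlap. Several ratios share a gene, and the pairs belong to the rule by which the genes were chosen. No share over other pairs of genes was computed, so nothing is read from this count. With 2 pools against 2, an exact permutation test cannot give a two-sided p below 0.333, and no test was made of the ratios.

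**Figure D3:**
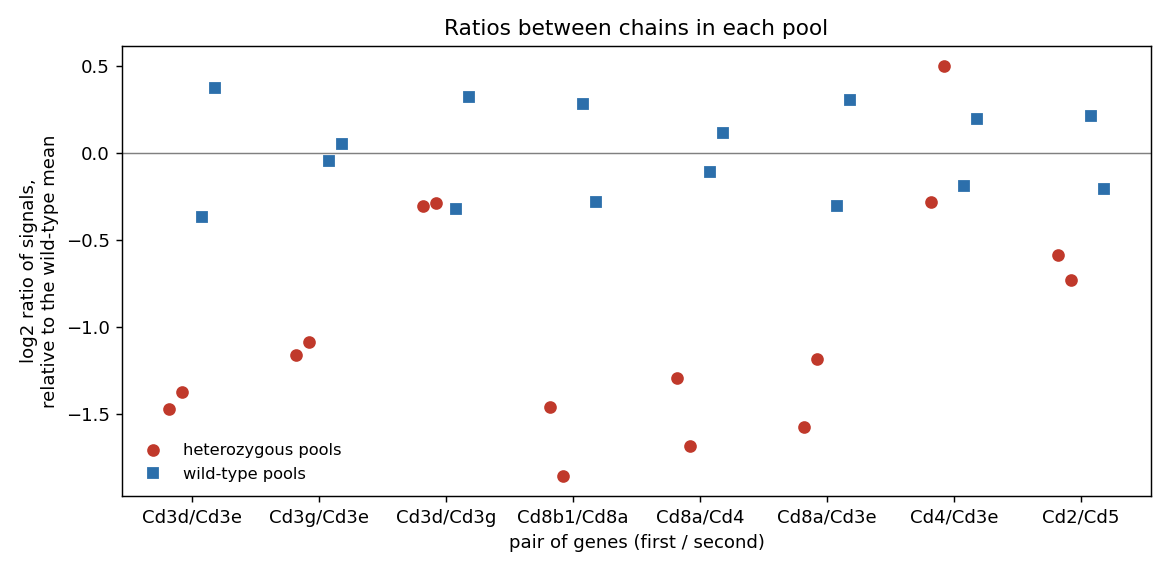
Log2 ratio of the signals of 2 genes in each pool, relative to the mean of the wild-type pools (circles, 2 heterozygous pools; squares, 2 wild-type pools). The heterozygous pools lie below both wild-type pools except for Cd3d/Cd3g and Cd4/Cd3e, where they overlap. Several ratios share a gene, and they are described without a test.

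The tested genes of other receptor chains were lower as well. All 6 fell in heterozygous hearts (19.5% of all tested genes were called lower and 19.5% higher), with a median log2 change of -2.75. In this and the following lists, the filter on dim probe sets used the mean over all 4 pools. A gene low in heterozygous hearts could thus pass through its wild-type signals, as Trgv4, Sla, Vav1, Itgal, Gata3, Runx1, Il7r, Ccr7, Gzma and others did. Counts of genes that fell may therefore partly reflect the filter. Cd247, the zeta chain that completes the complex, had signals of 310.4 and 566.4 in the heterozygous pools, against 2073.7 and 2017.8 in the wild-type pools (log2 change -2.29, SE 0.28, limma adjusted p = 0.000438), a call that was lost when dim probe sets were also tested (adjusted p = 0.0599). The probe sets of antigen receptor genes can detect several gene segments. Of these, Trbv1 and Trbv13-2 of the beta chain had log2 changes of -2.65 and -3.11, and Trav9d-3 of the alpha chain had one of -2.85. Trgv4 of the gamma chain, carried by another T cell lineage, had a log2 change of -2.91 and Trgv1 had one of -0.82 (limma adjusted p = 0.0385). The call of Trgv1 ended without heterozygous pool 1 (-0.47), wild-type pool 1 (-0.93) or wild-type pool 2 (-0.70), and under 5 other settings, among them quantile normalization (-0.66). A further 3 alpha chain segments were too dim to test. Trav6-2 and Trav12n-1 were lower in heterozygous hearts (log2 differences -2.74 and -2.565). Trav19 was higher (0.67), with signals of 208.4 and 307.9 in the heterozygous pools, against 146.6 and 174 in the wild-type pools. A second probe set of Cd247 was also too dim to test (-0.50).

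Of 25 tested genes of proximal signalling, 20 fell and none rose, with a median log2 change of -1.94. Lcp2 (SLP-76), the adaptor that ZAP-70 phosphorylates, had signals of 401.4 and 371.9 in the heterozygous pools, against 4612.3 and 3899.5 in the wild-type pools (log2 change -3.46, SE 0.19, limma adjusted p = 8.61e-06). Ptprc (CD45), the phosphatase that keeps LCK ready for activation, had 655.9 and 734.1 in the heterozygous pools, against 4609.8 and 8571.2 in the wild-type pools (log2 change -3.18). Sla, an adaptor that lowers receptor levels, had a log2 change of -4.34, and Vav1, an exchange factor downstream of ZAP-70, had one of -4.13 on its brightest probe set, -1.64 on a second and 0.82 (not called) on the dimmest. Of the 5 genes that did not pass, Bcl10 (log2 change -0.27, limma adjusted p = 0.343) and Csk, the kinase that restrains LCK (-0.52, limma adjusted p = 0.0991), were the brightest. Lat, the membrane adaptor that is the other main substrate of ZAP-70, was picked out after its values were seen. Its probe set had signals of 978.9 and 1076.7 in the heterozygous pools, against 999.6 and 1082.2 in the wild-type pools (log2 change -0.02, SE 0.19, limma adjusted p = 0.948). When no dim probe set was left out, the calls in this list numbered 12 and Vav1 was not among them. Without wild-type pool 2, Csk was called lower too (-0.81). With arrays centred on the cardiomyocyte markers 23 of the 25 genes were called lower, among them Csk (-1.12), Bcl10 (-0.88) and Lat (-0.62, limma adjusted p = 0.0334).

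Among other receptors of the T cell surface, all 11 tested genes fell, with a median log2 change of -2.33, and 11 further genes on the array were too dim to test. The log2 differences of the untested genes ran from -3.86 (Icos) to 0.91 (Lag3). Of the tested genes, Ly9 had signals of 108.9 and 80.8 in the heterozygous pools, and Itgal had 142.1 and 162.9. Both passed the filter through their wild-type signals (812.3 and 629.3 for Ly9, 947.6 and 735 for Itgal). The largest changes were those of Ly9, a SLAM family receptor (log2 change -2.93), Cd27, a costimulatory receptor of the TNF receptor family (-2.53), and Itgal and Itgb2, which together form the integrin LFA-1 (-2.46 and -2.45). Cd6, a relative and neighbour of Cd5 that was picked out for this position, had a log2 change of -0.85 on its brighter probe set, a call that ended without heterozygous pool 1 (-0.60), and -2.98 on the other. Of the transcription factors of T lineage cells, 9 of 10 tested fell, with a median log2 change of -2.10. Myb had a log2 change of -3.09, Satb1 had -2.40 and Gata3, which directs CD4 cells, had -2.31. Runx1, which acts on the Cd4 silencer in immature thymocytes, had signals of 30.4 and 115.1 in the heterozygous pools, against 1007 and 717.2 in the wild-type pools, with 1 value raised to the floor. Tcf3 did not pass (log2 change 0.26, limma adjusted p = 0.511). Gata3 and Runx1 lost their calls when dim probe sets were also tested.

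Of the ligands of the coreceptors and of CD2, all 7 tested genes fell, with a median log2 change of -1.61. Cd48, the mouse ligand of CD2, had signals of 528.1 and 449.8 in the heterozygous pools, against 2321.6 and 2253.2 in the wild-type pools (log2 change -2.23, SE 0.19, limma adjusted p = 6.67e-05). The MHC class II genes H2-Aa, H2-Eb1 and H2-Ab1, whose products CD4 binds, had log2 changes of -1.79, -1.71 and -1.61. H2-D1, B2m and H2-K1 of MHC class I were picked out as ligands of CD8. On their brightest probe sets they had the smallest changes of the 7 (-1.22, -0.87 and -0.68). Other probe sets of H2-K1 had -0.98 and -1.59, and others of H2-D1 had -0.95 and -0.93. H2-Ab1 and B2m lost their calls when dim probe sets were also tested. The call of H2-K1 ended without heterozygous pool 1 (-0.67). Whether the ligands differed from the receptors was not tested.

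**Figure D4:**
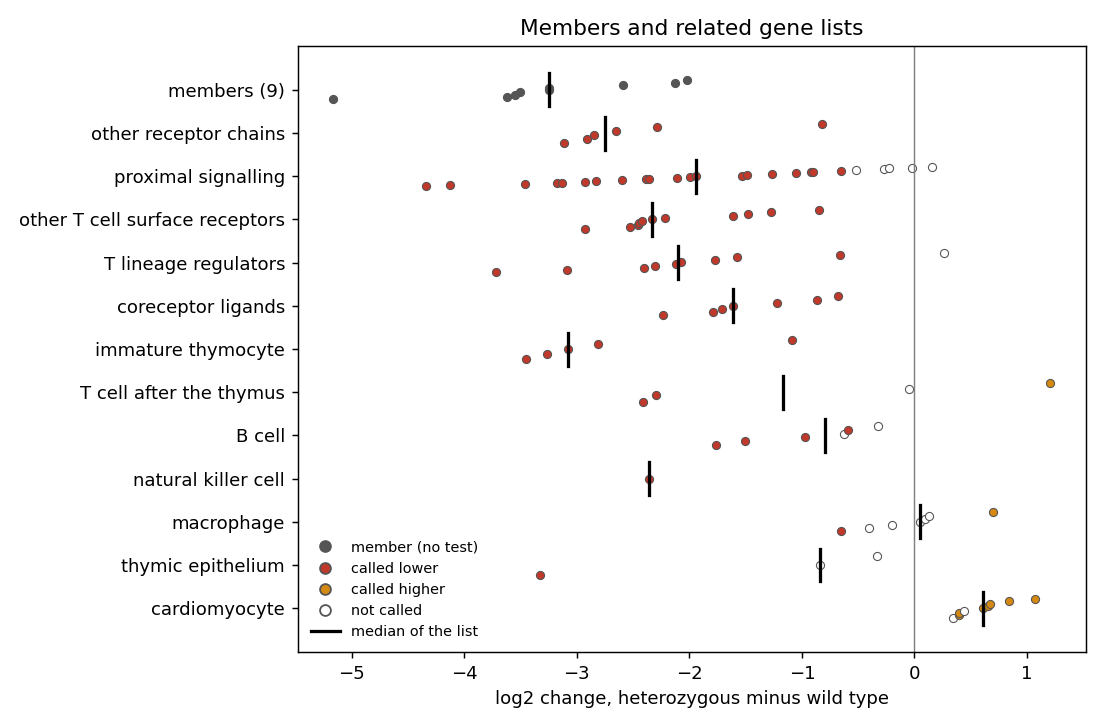
Log2 change, heterozygous minus wild type, of each tested gene (1 point a gene) in the 9 genes described and in 12 related lists, with a bar at the median of each list. The medians of the T cell, thymocyte and ligand lists lie left of 0, with single genes right of 0 (Klf2 at 1.20, Tcf3 at 0.26 and Nfatc2 at 0.15), while the macrophage median is 0.05 and the cardiomyocyte median 0.61.

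Markers of the cell types in which these genes are used, or that could accompany them, moved as follows, and their part in the differences was not tested. All 5 tested markers of immature thymocytes fell (median log2 change -3.08), with summed signals of 7302.3 and 7561.2 in the heterozygous pools, against 49676.6 and 55368.2 in the wild-type pools. Rag2 (172.1 and 98.9) and Ptcra (68.3 and 132) were dim in the heterozygous pools. They passed the filter through their wild-type signals (1395 and 1453 for Rag2, 984.7 and 842 for Ptcra). Rag2 and Rag1, which cut antigen receptor genes, had log2 changes of -3.45 and -3.08, Ptcra, the surrogate alpha chain, had -3.26 and Dntt had -2.81, although a dimmer Rag1 probe set had 0.61 (not called), and Ptcra was not called when dim probe sets were also tested. Of 4 tested genes listed as markers of T cells after the thymus, Il7r (log2 change -2.41) and Ccr7 (-2.29) fell. S1pr1 did not pass (-0.05) and Klf2 rose (1.20, limma adjusted p = 0.024). Il7r and Ccr7 are not confined to T cells that have left the thymus. Klf2, which endothelium also expresses, lost its call without heterozygous pool 1 (1.08), heterozygous pool 2 (1.33) or wild-type pool 2 (0.75). It was also not called with arrays centred on the cardiomyocyte markers (0.60, limma adjusted p = 0.159) or when dim probe sets were tested (limma adjusted p = 0.185). The summed signals of this list were 1588.2 and 1498 in the heterozygous pools, against 3070.7 and 2472.4 in the wild-type pools. In the thymic epithelium list Ccl25, a chemokine of thymus and gut that attracts thymocytes, fell (log2 change -3.33, limma adjusted p = 8.61e-06), while Cldn4 (-0.84) and Aire (-0.33) did not pass. The summed signals of the 3 tested genes were 1443.3 and 1545.7 in the heterozygous pools, against 9426 and 8060.8 in the wild-type pools, and Foxn1, Krt5, Krt14 and Epcam were too dim to test.

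B cell markers fell in 4 of 6 tested cases, with a median log2 change of -0.80 and summed signals of 4098 and 4549.2 in the heterozygous pools, against 9760.6 and 9496.3 in the wild-type pools. Ms4a1 (CD20) and Cd79b had log2 changes of -1.77 and -1.50, and Blk (-0.62) and Pax5 (-0.32) did not pass. With arrays centred on the cardiomyocyte markers all 6 were called lower, among them Blk (-1.22) and Pax5 (-0.92). Cd22 (-0.97) and Cd79a (-0.59) were called, but without any 1 of heterozygous pool 2, wild-type pool 1 and wild-type pool 2 neither was (Cd22 at -0.68, -1.0 and -0.94, Cd79a at -0.76, -0.48 and -0.69), and Cd79a also not without heterozygous pool 1 (-0.42). The 1 tested natural killer marker, Gzma, also carried by cytotoxic T cells, fell (log2 change -2.36), with signals of 263.1 and 185.3 in the heterozygous pools, against 1300.4 and 986.9 in the wild-type pools, and 5 others (Klrd1, Klrk1, Klrc1, Ncr1, Prf1) were too dim to test. The 7 tested macrophage markers had a median log2 change of 0.05 on the deposited scale and summed signals of 21941.4 and 21659.2 in the heterozygous pools, against 24023.9 and 21889.8 in the wild-type pools. Of 7 tested, Cd68 was called lower (-0.65; not without heterozygous pool 1 at -0.62, heterozygous pool 2 at -0.68 or wild-type pool 1 at -0.56) and Mrc1 higher (0.70; not without heterozygous pool 1 at 0.50, wild-type pool 1 at 0.64 or wild-type pool 2 at 0.76). The other 5 did not pass, among them C1qa (0.13) and Lyz2 (-0.20). Adgre1 (F4/80), too dim to test, had signals of 239.6 and 289.3 in the heterozygous pools, against 62.9 and 70 in the wild-type pools (log2 difference 1.99). With arrays centred on the cardiomyocyte markers, the median of the tested macrophage markers was -0.55, 6 were called lower and Mrc1 (0.10) was not called.

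The labelled tissue was checked on 9 cardiomyocyte markers, all above the filter, with summed signals of 713432 and 745595 in the heterozygous pools, against 524110 and 470785 in the wild-type pools. On the deposited scale 7 of 9 rose and none fell, with a median log2 change of 0.61. Mybpc3 (1.07), Ryr2 (0.84), Myl3 (0.67) and Tnni3 (0.65) changed most, while Actc1 (0.34) and Myh7 (0.44) did not pass. A second probe set of Actc1 was called higher (0.44, limma adjusted p = 0.0204), and one of Myh7 was too dim to test (-0.80). These values depend on the scaling: the median was 0.23 under cyclic loess, where 2 of 9 rose and neither Myl3 (0.26) nor Tnni3 (0.24) was called, and 0.36 under quantile normalization, where 5 rose. On the deposited scale 1 to 9 rose with 1 pool left out (3 without heterozygous pool 1, 1 without heterozygous pool 2). None was called when dim probe sets were also tested, and 1 with arrays centred on these markers, where the median was 0.01 by construction. Without heterozygous pool 2, Ryr2 (0.78), Myl3 (0.63) and Tnni3 (0.65) were not called, and without heterozygous pool 1 neither Myl3 (0.71) nor Tnni3 (0.66) was. Because each array has the same total, a large decrease in some transcripts and an increase in others cannot be fully separated. The median log2 difference of the 9 T cell genes was -3.07 with a common median, -3.20 under quantile normalization, -3.25 under cyclic loess and -3.85 with arrays centred on the cardiomyocyte markers.

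The genes whose profile over the 4 pools lay nearest to the mean profile of the 9 genes were found by Euclidean distance between log2 signals, each centred on its own mean. They were Ccl25 (distance 0.14), Top2a (0.17), Mki67 (0.18), D17H6S56E-5 (0.19), Myb (0.19), Rrm2 (0.23), Cdc6 (0.24) and Lcp2 (0.24). Top2a and Mki67 are genes of dividing cells, Rrm2 and Cdc6 serve DNA replication, and Ccl25, Myb and Lcp2 belong to the lists above. Of the 9 genes themselves Cd3g lay nearest to their mean profile (0.13) and Cd8b1 farthest from it (1.94). Top2a had signals of 348 and 285.3 in the heterozygous pools, against 2878.3 and 3002.4 in the wild-type pools. The likeness was measured over only 4 pools of 2 genotypes.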

How the data were processed

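The authors deposited signal intensities on a linear scale, 1 for each probe set of an array. The software and normalization behind them are not given in the sources used here. Trimmed means of the arrays (2% off each end) differed by 1.01 times, so the deposited intensities were not rescaled. The 66 control probe sets were removed from 12488. Signals under the 10th percentile (36.4) were raised to it, log2 was taken, and the 40% of probe sets with the lowest mean were not tested, which left 7453. Genotype was fitted with limma 3.58.1 (eBayes with a trend) in R 4.3.3, and p-values were adjusted over all tested probe sets by Benjamini-Hochberg at 0.05. Simulated data with known changes were used to check the fit. A gene stands on its probe set with the highest mean signal. The platform annotation gave 10855 probe sets 1 symbol, 396 several and 1237 none, and only those with 1 were named. Errors are SD over 2 pools or limma's SE of log2 differences. Depth does not apply to arrays, where the number of samples limits the precision. Same-numbered pools were not treated as pairs: their deviations correlated at 0.16 across probe sets, with only 2 pairs and nothing in the labels to tie them. Genes named are the 9 measured genes, the receptor chains, the 4 called genes of each list with the largest change, uncalled genes of a list (the 2 brightest where over 4), the 8 nearest profiles, and those said to be picked otherwise. The genes and lists were chosen with earlier results of these data known. The gene in which the mice were heterozygous is not reported here. Other scalings, floors, filters, moderation, a block and each pool left out were tried. Plots used matplotlib 3.10.9.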

Additional observations from a re-analysis of the deposited data

How the results depend on the processing

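Over all alternatives the 9 genes stayed lower, from -5.76 (Cd8b1, arrays centred on cardiomyocyte markers) to -1.83 (Cd4, without heterozygous pool 1). Over all probe sets tested, the median moved to 0.18 with a common median, 0.10 under quantile normalization and -0.60 with arrays centred on cardiomyocyte markers, by construction. With that centring the log2 differences were -5.76 (Cd8b1), -4.22, -3.69 and -0.77 (Zap70, from the brightest probe set to the dimmest), -4.15 (Cd3d), -4.11 (Cd8a), -3.85 (Cd3g), -3.85 (Cd2), -3.19 (Cd5), -2.73 (Cd3e) and -2.62 (Cd4). With a common median they were -3.44 and -2.91 (Zap70), -3.33 (Cd8a) and -2.41 (Cd5). Under quantile normalization the second Zap70 probe set stood at -2.99, and under cyclic loess Cd8a stood at -3.61. No ratio between chains moved by more than the spread within genotypes, but most settings could not have shown such a move. With 1 pool left out, a ratio cannot shift by more than this spread, because of how the spread is computed. The cardiomyocyte centring, the other floors and filters and the block left every ratio unchanged. Only quantile normalization, cyclic loess and a constant added to the signals could have exceeded the spread, and under these no ratio did. Without wild-type pool 2, Cd3d over Cd3g stood at 0.03, and Cd4 over Cd3e ran from -0.28 to 0.50 with 1 pool left out. No other probe set of a measured pair passed the filter on dim signals, so ratios on other probe sets were not run, nor was Lck over Zap70.

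Calls over all tested probe sets numbered 2856 (1337 higher), 3112 (1945 higher) with a common median and 3862 (208 higher) with the cardiomyocyte centring, against 1205 when dim ones were also tested and 1707 to 2291 with 1 pool left out (1708 without heterozygous pool 1, 1707 without heterozygous pool 2), where the lone pool is assumed to vary like the other genotype. With dim probe sets tested, 12 proximal signalling genes, 2 B cell markers and 0 macrophage markers were called lower. With the lowest 60% left out, 3 immature thymocyte markers, 0 markers of T cells after the thymus and 0 natural killer markers were called lower, as fewer genes were tested. B cell markers called lower numbered 2 with a common median, under quantile normalization and under cyclic loess, and 6 with the cardiomyocyte centring. Macrophage markers called lower numbered 0 with a common median or quantile normalization, 6 with the cardiomyocyte centring and 0 to 2 with 1 pool left out. Thymic epithelium genes called lower numbered 3 with that centring and 2 without a trend. The causes were not tested. With the pool number as a replicate block, 3035 probe sets were called, and 20 proximal signalling genes and 6 receptor chains were called lower, as without it; of B cell markers 3 were. A floor at the 5th or 20th percentile, log2(signal + 16), robust moderation, and counting a gene by any probe set moved no count by over 1.5 times.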
